A study of Homo sapiens with 2 samples.

Results

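Tubulin genes were described in TCam-2, an established human line derived from a seminoma (a germ cell cancer of the testis), after transduction with DDX53-FLAG, a tagged form of the RNA helicase gene DDX53. The 10 genes were taken from a list by symbol, 10 of the 62700 genes in the gene table, and all 10 were found. They are the alpha-tubulin genes TUBA1A, TUBA1B and TUBA1C, the beta-tubulin genes TUBB, TUBB2A, TUBB2B, TUBB3, TUBB4B and TUBB6, and the gamma-tubulin gene TUBG1. Their 69 matched transcripts were read from the transcript table. The genes were chosen by name and partly selected on measured values, the transcript TPM of TUBA1C, whose highest transcript was not the same in both libraries, so that feature is described here and was not tested. Both libraries belong to 1 group, the DDX53 overexpression cells, labelled replicate 1 and replicate 2. The labels do not say whether the replicates came from separate cultures. Libraries of cells transduced with GFP-FLAG and of untransduced cells were not analysed here, so no value below is an effect of DDX53.

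Alpha-tubulin and beta-tubulin pair as heterodimers that polymerise head to tail into microtubules, the filaments of the mitotic spindle, the cilium and the axon. Gamma-tubulin sits in ring complexes at the centrosome and starts new microtubules. Human cells carry several genes, called isotypes, for each of the alpha and beta forms, and the isotypes differ most in the acidic tail at the end of the protein, where enzymes add or remove glutamate, glycine or tyrosine. The amount of tubulin feeds back on tubulin mRNA: when free dimers are abundant, the factor TTC5 binds the first residues of tubulin as it leaves the ribosome and the mRNA is degraded.

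The last 60 coding bases of the 6 beta genes and TUBG1 are shown because they encode the tail, which differs between most of these genes. They run 5′ to 3′ on the mRNA strand, are the same as the GRCh38 reference in GENCODE release 29, and end with the stop codon. Capitals mark the codons GAA, GAG, GAT and GAC, which encode the acidic residues.
TUBB, chr6:30724338-30724397, plus strand: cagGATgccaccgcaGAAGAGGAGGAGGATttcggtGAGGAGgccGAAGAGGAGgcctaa
TUBB2A, chr6:3153863-3153922, minus strand: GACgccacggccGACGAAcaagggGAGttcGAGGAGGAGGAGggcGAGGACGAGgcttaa
TUBB2B, chr6:3224751-3224810, minus strand: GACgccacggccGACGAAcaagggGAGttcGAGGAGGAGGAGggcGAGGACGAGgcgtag
TUBB3, chr16:89935745-89935804, plus strand: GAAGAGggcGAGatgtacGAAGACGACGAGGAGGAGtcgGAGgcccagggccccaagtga
TUBB4B, chr9:137243497-137243556, plus strand: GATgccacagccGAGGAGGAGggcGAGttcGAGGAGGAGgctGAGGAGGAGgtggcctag
TUBB6, chr18:12326071-12326130, plus strand: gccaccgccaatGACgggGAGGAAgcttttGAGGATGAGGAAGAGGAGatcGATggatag
TUBG1, chr17:42614982-42615041, plus strand: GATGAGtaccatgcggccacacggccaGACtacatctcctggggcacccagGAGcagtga
Among the last 19 sense codons, the beta genes had 10 acidic codons (TUBB3 and TUBB6) or 11 (TUBB, TUBB2A, TUBB2B and TUBB4B). TUBG1 had 4. TUBB2A and TUBB2B were 98.2% identical over the last 57 bases before the stop codon. They differ there only in the last codon, GCT and GCG, which encode the same residue, so these bases encode the same tail in both.

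In alpha and beta genes the first coding bases encode the residues that the feedback reads. Of the 10 genes, 4 are shown for their different starting bases, with the first 12 bases in capitals, read 5′ to 3′ from the spliced transcripts of GENCODE 29.
TUBA1B: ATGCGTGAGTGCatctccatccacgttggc
TUBB: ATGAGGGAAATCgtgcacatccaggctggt
TUBB2A: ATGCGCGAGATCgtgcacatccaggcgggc
TUBG1: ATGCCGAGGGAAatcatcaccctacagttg
In their principal transcripts, the 3 alpha genes shared the same first 12 bases. For TUBA1C that transcript is TUBA1C-201, with 0.706% (replicate 1) and 0.633% (replicate 2) of the gene's TPM. TUBA1C-204, with 31.9% and 31.0%, has the same first 12 coding bases. TUBA1C-202, with 37.0% and 33.7%, has different ones after the start codon, so the shared start does not cover all TUBA1C transcripts. Among the 6 beta genes, TUBB and TUBB4B shared a start, TUBB3 and TUBB6 shared another, and TUBB2A and TUBB2B each had their own. These beta starts differ in their bases, but the first 12 bases encode the same residues in all 6 beta genes.

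**Figure D1:**
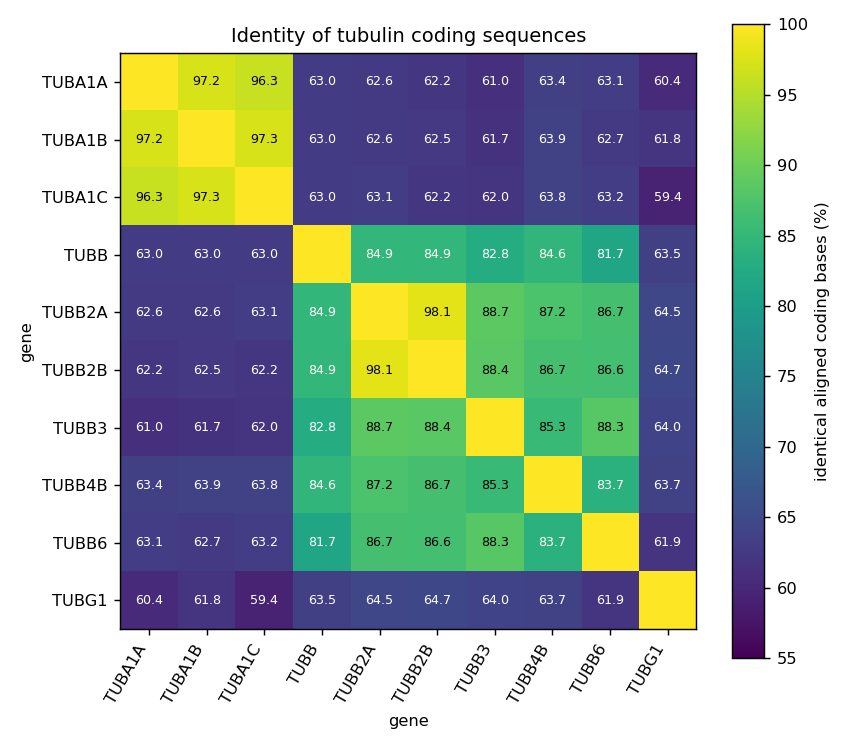
Identity of the coding sequences of the 10 genes in pairs, as the percentage of aligned bases that are the same (gaps left out). The 3 alpha genes lie between 96.3% and 97.3%, TUBB2A and TUBB2B at 98.1%, and pairs from different classes below 65%.

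On GRCh38 the alpha genes lie together on chromosome 12, TUBA1B (ENSG00000123416.15) at chr12:49127782-49131397 on the minus strand, TUBA1A (ENSG00000167552.15) at chr12:49184796-49189324 on the minus strand and TUBA1C (ENSG00000167553.17) at chr12:49188736-49274603 on the plus strand. Beta genes are scattered. Chromosome 6 holds TUBB2A (ENSG00000137267.7) at chr6:3153669-3157526 on the minus strand, TUBB2B (ENSG00000137285.11) at chr6:3224261-3231730 on the minus strand and, far from them, TUBB (ENSG00000196230.14) at chr6:30720201-30725426 on the plus strand. The remaining beta genes are TUBB4B (ENSG00000188229.6) at chr9:137241213-137243707 on the plus strand, TUBB3 (ENSG00000258947.8) at chr16:89921392-89938761 on the plus strand and TUBB6 (ENSG00000176014.13) at chr18:12307669-12344320 on the plus strand. The gamma gene is TUBG1 (ENSG00000131462.9) at chr17:42609676-42615234 on the plus strand. The principal transcripts have 4 exons in the alpha and beta genes and 11 in TUBG1.

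Some of these genes share much of their sequence with other genes and others share little, which bears on how reads can be assigned. Coding sequences of the alpha genes were 96.3% to 97.3% identical over 3 pairs, and those of the beta genes 81.7% to 98.1% over 15 pairs, with a median of 86.6%. In windows of 100 bases along the principal transcript, 37.2% of TUBA1B, 18.3% of TUBA1A and 11.5% of TUBA1C occurred in a transcript of another gene. For TUBA1C that transcript is TUBA1C-201, of 3001 bases, which held 0.706% and 0.633% of TUBA1C TPM. The shorter transcripts that held most of its TPM were not measured in this way. TUBB2A shared 56.4% and TUBB2B 46.2% of their windows, mostly with each other. TUBB6 shared 0 windows, TUBB4B 2.86% and TUBB 5.10%, the latter with the pseudogene TUBBP1. TUBG1 shared 14.9% with TUBG2. TUBB3 stood highest at 89.0%, and the gene it shared them with was a readthrough gene (ENSG00000198211) whose exons cover 89.5% of the principal TUBB3 transcript on the same strand. Some members are also neighbours. Between TUBA1B and TUBA1A lie 53398 bases. The annotated ends of TUBA1A and TUBA1C overlap on opposite strands by 589 bases, and the strand setting of the counting is not given in the sources used here. Between TUBB2A and TUBB2B lie 66734 bases.

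Replicate 1 held 24137664 reads in genes and replicate 2 held 22198929. DDX53 had 146 reads (6.05 CPM, reads per 1000000 reads in genes) in replicate 1 and 147 reads (6.62 CPM) in replicate 2. All 8 seminoma and germ cell markers were detected, which here means at least 1 CPM in both libraries, led by POU5F1 at 1891 and 1921 CPM, TFAP2C at 1255 and 1247 CPM and NANOG at 705 and 691 CPM, and the lowest was KIT at 67.7 and 68.1 CPM. Of 8 markers of testis somatic cells, 3 were detected, GATA4 at 39.8 and 38.5 CPM, SOX9 at 7.79 and 4.68 CPM and AMH at 6.01 and 5.81 CPM, and CYP17A1 was lowest with 0 and 1 read. Over all 8 the summed level was 54.9 and 50.05 CPM in the 2 libraries.

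A few tubulin isotypes took most of the tubulin reads, and TUBB, TUBA1B and TUBA1C ranked 13, 19 and 57 among all genes by mean CPM, which is not corrected for length. The 10 genes together took 198919 reads in replicate 1, or 8241 CPM, and 186569 reads in replicate 2, or 8404 CPM. Their summed level was 8323 ± 116 CPM (SD, n = 2). Of the 10 genes 9 were detected, where 21.7% of all genes in the table were. The same 21.7% is the background for every count of detected genes in a list, above and below. TUBB3 was the exception by read count. In bulk RNA, fewer cells that express a gene and less of its RNA per cell cannot be told apart.

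**Figure D2:**
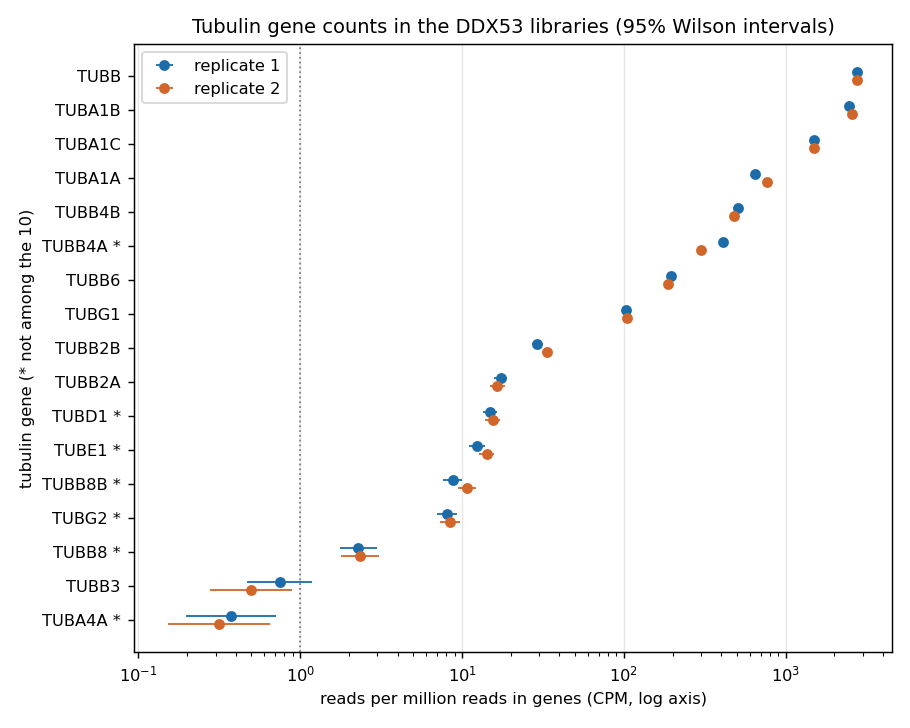
CPM on a log axis for 17 tubulin genes in both libraries, with 95% Wilson intervals that cover counting error only. The dotted line marks 1 CPM and asterisks mark genes outside the 10. TUBB, TUBA1B and TUBA1C lie at 1493 CPM or higher in both libraries, and TUBB3 and TUBA4A lie below 1 CPM.

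Among the alpha genes, TUBA1B, the ubiquitous alpha isotype of dividing cells, received 59618 reads in replicate 1 and 56719 in replicate 2. That is 2470 and 2555 CPM, or 2512 ± 60.2 CPM (SD, n = 2). TUBA1C, also widely expressed, received 36138 and 33142 reads, which is 1497 and 1493 CPM (1495 ± 2.98, SD, n = 2). Its libraries were almost level. TUBA1A, the alpha isotype best known from developing neurons, received 15536 and 16942 reads, or 644 and 763 CPM (703 ± 84.5, SD, n = 2). Its replicates lay farther apart than those of TUBA1B and TUBA1C, with the value higher in replicate 2, and its counting intervals did not overlap (634 to 654 CPM in replicate 1 and 752 to 775 CPM in replicate 2, 95% Wilson). Other alpha genes were close to silent in the counts. TUBA4A had 9 and 7 reads, TUBA3D had 1 and 0, and TUBA3C, TUBA3E, TUBA8 and TUBAL3 had 0 in both libraries. A count of 0 allows a level of up to 3 reads, equal to 0.124 CPM (replicate 1) or 0.135 CPM (replicate 2).

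Among the beta genes, TUBB, the main beta isotype of dividing cells, received 66994 and 61525 reads, or 2775 and 2772 CPM (2774 ± 2.80, SD, n = 2). TUBB4B, a beta isotype that is also abundant in cilia, received 12293 and 10620 reads, or 509 and 478 CPM (494 ± 21.8, SD, n = 2). TUBB6, a more divergent beta isotype, was at 196 and 188 CPM (192 ± 5.50, SD, n = 2). Of the near-identical neighbours, TUBB2B was at 29.2 and 33.4 CPM and TUBB2A at 17.4 and 16.5 CPM. TUBB3, the beta isotype used as a marker of neurons, had 18 and 11 reads, or 0.746 and 0.496 CPM.

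TUBG1 encodes the main gamma-tubulin. It received 2476 and 2332 reads, or 103 and 105 CPM (104 ± 1.75, SD, n = 2). Its paralog TUBG2 had 194 and 187 reads, or 8.04 and 8.42 CPM. The delta and epsilon tubulins of centrioles, TUBD1 and TUBE1, were at 14.9 and 15.5 CPM and at 12.3 and 14.2 CPM.

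The beta family held a further well-counted gene outside the 10. TUBB4A, a beta isotype known from brain, received 9852 reads in replicate 1 and 6655 reads in replicate 2, or 408 and 299.8 CPM (354 ± 76.6, SD, n = 2). Its counting intervals did not overlap. Per length it lay above TUBB6 in both libraries, at 249.6 and 185.5 TPM. TUBB8B had 212 and 239 reads, TUBB8 had 55 and 52, and TUBB1, the isotype of platelets, had 0 and 1. Of 52 tubulin pseudogenes in the table, 8 had a read in either library and 0 had at least 100 reads in both. All 52 together had 51 reads in replicate 1 and 38 in replicate 2. Of the 62700 genes in the table, 26504 had a read in either library. The share of all genes with at least 100 reads in both was not computed.

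Of all reads in 9 alpha genes, TUBA1B took 53.3% ± 0.326, TUBA1C 31.7% ± 1.02 and TUBA1A 14.9% ± 1.35 (SD, n = 2 each). Of all reads in 10 beta genes, TUBB took 71.6% ± 1.83, TUBB4B 12.7% ± 0.225, TUBB4A 9.11% ± 1.74 and TUBB6 4.95% ± 0.0103 (SD, n = 2 each). Read shares favour long transcripts. In shares of TPM (transcripts per 1000000, which takes length into account), TUBB took 58.2% ± 1.56 of the beta genes and TUBB4B 18.2% ± 0.136, while TUBB3 took 5.20% ± 0.0521 (SD, n = 2 each). In the same unit TUBA1B took 48.3% ± 0.307 and TUBA1C 40.8% ± 0.618 of the alpha genes (SD, n = 2 each).

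Levels of different genes were compared per length, as the TPM of a gene's matched transcripts summed. TUBA1B was highest with 2555 and 2672 TPM (2613 ± 82.9, SD, n = 2). TUBA1C followed with 2169 and 2240 TPM, then TUBB with 1431 and 1435 TPM. TUBA1A had 537 and 639 TPM and TUBB4B 459 and 438 TPM. The lower members were TUBB6 (160 and 155 TPM), TUBB3 (131 and 125 TPM), TUBG1 (89.0 and 92.6 TPM), TUBB2B (35.0 and 40.7 TPM) and TUBB2A (34.4 and 36.2 TPM). Each member's range over the libraries was separate from that of the next in this order, except for TUBB2B and TUBB2A, whose ranges overlapped. No test of the order was run. The order of TUBA1C and TUBB turned with the measure: as CPM per kilobase of the leading transcript with a complete coding annotation, TUBA1C was at 882 ± 1.76 and TUBB at 1039 ± 1.05 (SD, n = 2 each), the opposite order. On that scale TUBB3 moved from place 7 to place 10.

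The gene table and the transcript table were then set against each other for each member. The prediction for a gene was the TPM of its transcripts times their lengths as a share of that sum over all matched transcripts, on the CPM scale. Where TPM was at least 10 in each library (7432 genes), the median log2 ratio of found to predicted CPM was 0.078 in replicate 1 and 0.080 in replicate 2. TUBB4B was at 0.01 and -0.02 on this scale, TUBB6 at -0.03 and -0.05, TUBG1 at 0.10 and 0.07, and TUBB at 0.12 and 0.10. The alpha genes were slightly below, TUBA1A at -0.09 and -0.10, TUBA1B at -0.17 and -0.20 and TUBA1C at -0.23 and -0.26. TUBB2B and TUBB2A fell short by more, with -0.70 and -0.73 for TUBB2B and -1.07 and -1.20 for TUBB2A. The cause of these shortfalls was not tested.

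TUBB3 was far apart from the rest. Its TPM predicted 155 CPM in replicate 1 and 148 CPM in replicate 2, and 0.746 and 0.496 CPM were found, 208-fold and 299-fold less. It was the 1 member of 10 at least 4-fold below the prediction in both libraries, and 5.66% of the 7432 genes were. The readthrough gene that covers most of its exons had 0 reads in both libraries and 0.0706 and 0 TPM. A single transcript, TUBB3-201, held 98.2% of TUBB3 TPM in each library. The levels of TUBB3 are therefore uncertain between the 2 tables. How the reads of overlapping genes were counted is not given in the sources used here.

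**Figure D3:**
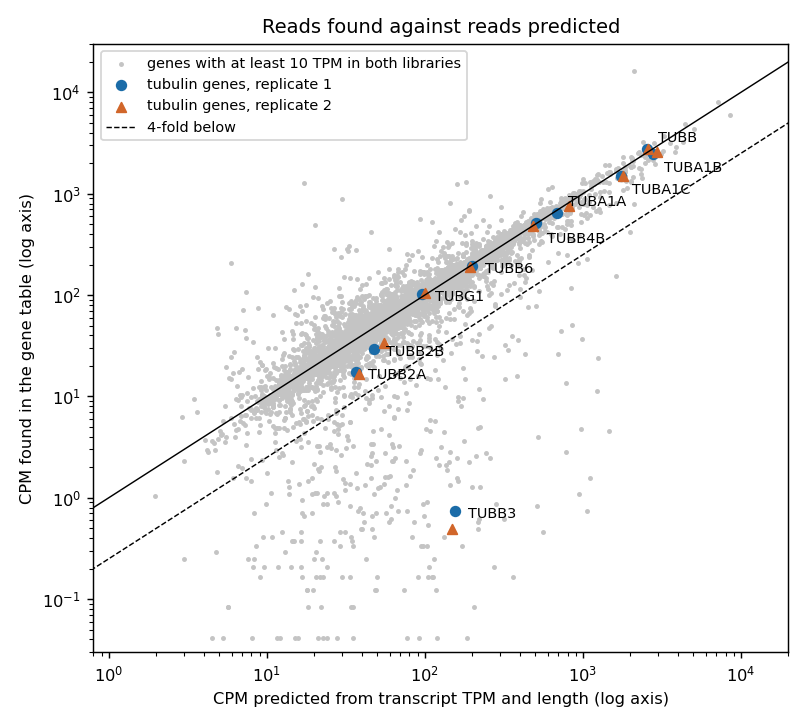
CPM found in the gene table against CPM predicted from transcript TPM and length, both on log axes, for genes of 10 TPM or more in each library (grey, replicate 1, genes with a read) and the 10 tubulin genes in each library. Of the 10 genes 9 lie within 4-fold of the diagonal and TUBB3 lies 208-fold and 299-fold below it.

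Because TUBB3 serves as a marker of neurons, a list of 10 neuron markers is given beside it. Of these, 6 were detected, led by the neurofilament gene NEFL at 60.8 and 54.3 CPM, the related INA at 53.8 and 50.2 CPM and SYT1 at 12.2 and 13.9 CPM. STMN2 had 0 reads in both libraries. SNAP25, NEFM and DCX were below 1 CPM in both libraries. The summed level of the list was 140.0 CPM in replicate 1 and 129 CPM in replicate 2. Whether the cells that hold TUBB3 transcripts also hold these was not tested, since the libraries are bulk RNA.

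Isoform use was read from the transcript table as each transcript's share of its gene's TPM. In 8 of the 10 genes a single transcript held at least 96.0% of TPM in both libraries, which is the lowest share among these 8 and not a limit set beforehand. These were TUBA1A-202 (98.9% and 98.2%), TUBA1B-202 (99.9% in each), TUBB-205 (99.0% and 99.1%), TUBB2A-201 (98.1% and 96.0%), TUBB2B-201 (100% in each), TUBB3-201 (98.2% in each), TUBB4B-201 (99.1% and 99.3%) and TUBG1-201 (99.5% and 99.7%). Across the 7040 genes compared, the top transcript held a median 72.3% in replicate 1. The share of those genes at 96.0% or more was not computed, so the count of 8 has no background. TUBB2A, TUBB2B and TUBB4B have only 2 matched transcripts each, and TUBB has 4. TUBB6 was more divided, with 80.3% in TUBB6-201 in each library, 11.8% and 11.7% in the shorter TUBB6-213 and 4.60% and 4.43% in TUBB6-203.

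TUBA1C was divided between 3 transcripts, which together held 99.3% and 99.4% of its TPM. TUBA1C-202 held 37.0% in replicate 1 and 33.7% in replicate 2 (803 and 754 TPM). TUBA1C-203, annotated as a retained intron with no coding sequence, held 30.4% and 34.7% (658 and 777 TPM). TUBA1C-204, a short transcript of 696 bases, held 31.9% and 31.0% (692 and 695 TPM). The principal coding transcript TUBA1C-201, of 3001 bases, held 0.706% and 0.633%. The top transcript was thus TUBA1C-202 in replicate 1, by 5.12 points over TUBA1C-204, and TUBA1C-203 in replicate 2, by 1.00 point over TUBA1C-202.

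These transcripts overlap to different degrees on the plus strand of chromosome 12. The place where TUBA1C-202 and TUBA1C-204 meet is given with capitals for the exon they share, the second, which starts at 49269465, and small letters for what comes before it.
TUBA1C-202: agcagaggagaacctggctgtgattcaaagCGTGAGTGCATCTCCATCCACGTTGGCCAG
TUBA1C-204: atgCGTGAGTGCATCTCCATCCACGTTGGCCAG
TUBA1C-202 begins in an exon far upstream, chr12:49227926-49228166, and has its own start codon there, which gives 1560 coding bases against 1350 in TUBA1C-201. TUBA1C-204 begins in the nearer first exon, whose only coding bases are the start codon, and its exon 3 runs on into the intron. TUBA1C-203 begins in the intron before exon 3 and contains most of the last exon. Of the bases of TUBA1C-203, 96.2% lie in TUBA1C-202, and TUBA1C-203 shares only 149 bases, those of exon 3, with TUBA1C-204. TUBA1C-203 and TUBA1C-204 together cover 75.9% of TUBA1C-202.

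TPM weights a short transcript as much as a long one. When TPM was multiplied by length, which gives the reads each transcript predicts, TUBA1C-202 held 52.0% in replicate 1 and 48.0% in replicate 2, ahead of TUBA1C-203 with 27.8% and 32.2% and TUBA1C-204 with 18.4% and 18.2%. On that scale the top transcript was the same in both libraries, as it was among transcripts annotated as protein coding alone. By TPM, 1 of the 10 genes differed in its top transcript, the feature for which TUBA1C was listed, and 6.90% of the 7040 genes did. The share of TUBA1C-202 shifted by 3.37 points between the libraries, where the median shift over genes was 3.01 points and 46.6% of genes shifted more. The depth behind a transcript's TPM is unknown, so these shares have no interval.

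**Figure D4:**
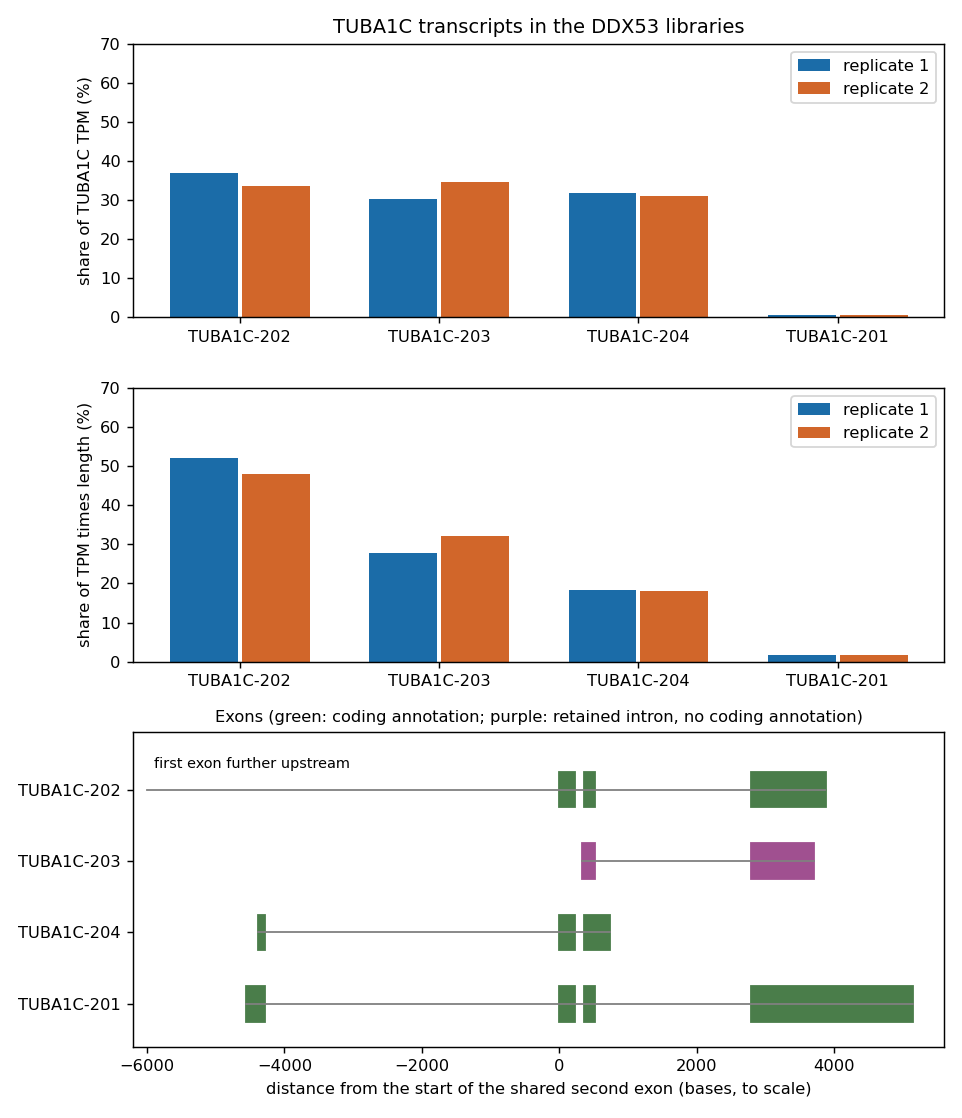
Shares of TUBA1C transcripts by TPM (top) and by TPM times length (middle) in both libraries, and their exons drawn to scale against the start of the shared second exon (bottom). TUBA1C-202 and TUBA1C-203 change places by TPM (37.0% and 30.4% in replicate 1, 33.7% and 34.7% in replicate 2) and keep their order by TPM times length.

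Differences between the replicates were given as log2((CPM + 1)/(CPM + 1)), replicate 2 against replicate 1. The choice of genes used this contrast, so the values describe the libraries and support nothing about the 10 genes. TUBA1A was at 0.25, the largest value among the 9 genes with a mean of 1 CPM or more. TUBB2B was at 0.19, TUBA1B at 0.05, TUBG1 at 0.03, TUBB6 at -0.06, TUBB2A at -0.07 and TUBB4B at -0.09. TUBB and TUBA1C were at -0.0021 and -0.0041. TUBB3, with a mean under 1 CPM, was at -0.22, and at -0.51 with a pseudocount of 0.1 CPM, where it differed most of the 10. The other 9 genes had a median of -0.0021, against -0.0077 over the 13898 genes whose mean was 1 CPM or more. Of the 9 genes 1 differed by over 0.2, and 20.6% of the 13898 genes did. Counting intervals were separate for 3 of the 9 (TUBA1A, TUBA1B and TUBB4B), and for 13.9% of the 13898 genes. An exact binomial test on the reads (edgeR, adjusted p under 0.05) called 3 of the 10 genes and 13.1% of 15299 genes. That test compares 2 libraries, not conditions, and nothing is read from its calls. TUBB4A, outside the 10, was at -0.44, more than any of the 9 genes, and 2.65% of genes differed by more.

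**Figure D5:**
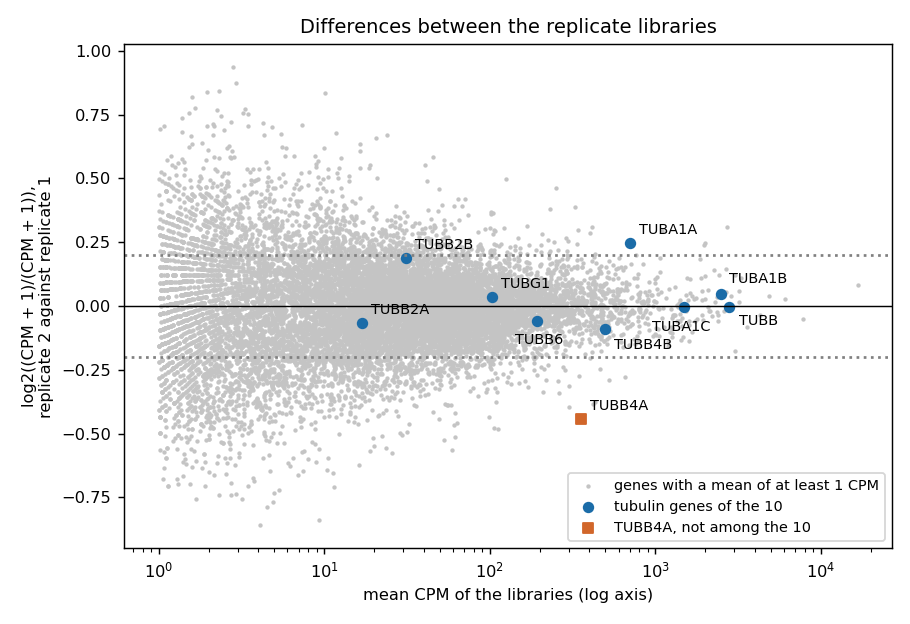
Log2 difference between the replicates against mean CPM (log axis) for all genes whose mean was 1 CPM or more (grey), 9 of the 10 tubulin genes and TUBB4A. Dotted lines mark differences of 0.2 in size. TUBA1A lies at 0.25 and TUBB4A at -0.44.

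Genes that fold tubulin were counted throughout, and are ordered here by CPM, with no correction for length. All 8 subunits of CCT, the ring chaperonin that folds newly made tubulin, were detected, from CCT7 at 434 and 437 CPM to CCT3 at 945 and 974 CPM, with CCT6A (949 and 888 CPM) and CCT5 (903 and 904 CPM) close to the top. All 6 prefoldin subunits, which hand tubulin to CCT, were detected, led by VBP1 at 84.6 and 97.7 CPM, PFDN1 at 72.9 and 70.5 CPM and PFDN4 at 66.8 and 65.0 CPM. PFDN5 was lowest at 2.49 and 2.34 CPM, but its 425 and 454 TPM predicted 160 and 171 CPM, so its count is uncertain. Of 7 genes for the cofactors that join alpha to beta and their regulators, 6 were detected, with TBCD at 310 and 318 CPM, TBCB at 224 and 214 CPM and TBCA at 178 and 179 CPM. TBCE had 15 reads in each library against a prediction of 61.4 and 79.1 CPM, and is uncertain in the same way.

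The partners of TUBG1 were all counted too. All 9 genes of the gamma-tubulin complex were detected, with TUBGCP2 at 279 and 287 CPM, MZT2B at 57.9 and 55.9 CPM, TUBGCP3 at 52.0 and 51.3 CPM and TUBGCP6 lowest at 11.1 and 12.9 CPM. Of the 3 genes of tubulin mRNA feedback, TTC5 was at 15.0 and 17.6 CPM, SCAPER, an adaptor for the deadenylase, at 14.1 and 13.9 CPM, and CNOT11, a subunit of that deadenylase complex, at 118 and 131 CPM. A difference of over 0.2 between the libraries was seen in 1 of 6 prefoldin genes (VBP1, 0.20), 1 of 3 feedback genes (TTC5, 0.22), and 0 of 8 CCT genes, 0 of 9 genes of the gamma-tubulin complex and 0 of the 6 cofactor genes whose mean reached 1 CPM. The share over the 13898 genes was 20.6%.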

How the data were processed

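Polyadenylated RNA of 2 libraries of 1 group was analysed, prepared with a strand-marking kit per the labels' protocols. The authors deposited TPM per transcript, made with salmon as the table's name says, and a signal per gene that its name calls CPM. The submitters' processing notes name Trim Galore 0.6.10, STAR 2.7.11a, DESeq2, Salmon 1.10.2 and GRCh38. The counting tool, its strand setting and the annotation are not given in the sources used here. Each deposited gene value was a whole multiple of 1.02 in replicate 1 and 1.12 in replicate 2 (100% whole within 1e-06), and reads were recovered by that step. No column was left unused (0). CPM were computed from those reads. Transcripts were matched by identifier without version to GENCODE 29 on GRCh38 (201667 of 251955, with 94.8% of TPM in each library), which also gave positions and sequences. Protein identity had been planned, but no protein table was at hand, so coding DNA was compared (Biopython 1.88). The principal transcript is that of the APPRIS tag.

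Intervals are 95% Wilson and cover counting error only (no molecular identifiers are described). The exact binomial test used edgeR 4.0.16 (TMM, filterByExpr, Benjamini-Hochberg). On a simulated pair of libraries with 200 of 15424 genes changed 2-fold, 95.5% were recovered and 13 unchanged genes were called. That pair was drawn with Poisson counting noise alone, and the changed genes were taken from genes above a minimum of expected reads. The simulation therefore cannot show how the test behaves where real libraries differ by more than counting noise. The 10 genes and the gene lists were chosen with earlier results of these data known. Named are the 10 genes, the other 13 tubulin genes, the 3 highest and the lowest gene of each further list, pseudogenes with 100 reads, and the 2 leading transcripts. Other names, and CPM per kilobase, were chosen after values were seen. With 2 libraries no likeness of pattern between genes was computed. Some sequences are not reported here. Alternatives covered the pseudocount, scaling, filters, library, table, length and window.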

Additional observations from a re-analysis of the deposited data

How the results depend on the processing

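No paired analysis was possible because both libraries belong to 1 group. Leaving out a library gave 8241 to 8404 CPM for the 10 genes summed, 53.1% to 53.6% for TUBA1B and 70.3% to 72.9% for TUBB. Without mitochondrial genes in the denominator the 10 genes summed to 8468 CPM. With summed TPM in place of CPM, TUBA1B took 48.3% of alpha and TUBB 58.2% of beta tubulin. The log2 level of TUBA1C over TUBB, 0.62 by TPM, was -0.24 by CPM per kilobase, an alternative added after seeing the data. The number of members whose top transcript differed, 1, was 0 among coding transcripts and 0 by TPM times length, the latter also added later. Over all genes that share was 11.7% at 1 TPM, 4.39% at 50 TPM and 4.91% by TPM times length. Among all 26504 genes with a read, 18.8% differed by over 0.2 and 7.52% had separate intervals. The binomial test called 1716 genes there, against 2008. The cause of the shifts in these values was not tested. The detected members numbered 10 at 0.1 CPM and 9 at 5 CPM. Median shared windows were 35.5% at 50 bases, 16.6% at 100 and 6.84% at 150. The 18 and 11 reads of TUBB3 give counting intervals of 0.472 to 1.18 CPM and 0.277 to 0.887 CPM, which do not cover the gap to its TPM.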

Other observations

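Enzymes that modify tubulin were counted at modest levels. Of 19 such genes 17 were detected, led by VASH1, which removes the tyrosine at the end of alpha-tubulin, at 98.9 and 114 CPM, AGBL5, a deglutamylase, at 63.4 and 68.4 CPM, and TTLL12 at 63.1 and 64.0 CPM. AGBL2 was lowest with 1 read in each library. Over all genes in the table, 21.7% were detected. Of the 17 genes whose mean reached 1 CPM, 5 differed by over 0.2 between the libraries, where 20.6% of 13898 such genes did. In replicate 2, 12 were higher and 5 lower, with a median log2 difference of 0.047. Of the 13898 genes 6643 were higher and 7255 lower, with a median of -0.0077.

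Of 16 genes for proteins that bind microtubules or free tubulin, 13 were detected, where 21.7% of all genes in the table were. STMN1, which sequesters tubulin dimers, was at 462 and 480.3 CPM, MAPRE1, which tracks growing ends, at 408 and 416 CPM, and CKAP5, a microtubule polymerase, at 409 and 399 CPM. In the 3 that were not detected, STMN2 had 0 reads in both libraries, and MAP2 and DCX, named after their values were seen, were below 1 CPM.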
